A study of Rattus norvegicus with 9 samples.

Results

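Among 87 rows of a Clontech array hybridised with RNA from the left ventricle of the rat heart, 3 rows, R635, R087 and R520, were listed with differences on acute heat stress that ran in opposite directions depending on what the animals had been through before. R635 was lower on stress after 2 d of acclimation and higher after reacclimation, and R087 and R520 were lower on stress without acclimation and higher after 1 mo of it. The intensities deposited beside the ratios were also at least 2-fold higher on stress for R087 and R520 after 1 mo acclimation, from unstressed values not shown to be above background. They did not show the falls of R635 and R087 or the rise of R635 at 2-fold. By intensity R087 was higher, not lower, on stress without acclimation, and the direction of R635 after 2 d acclimation depended on scaling. The intensities held no value with which to check the fall of R520. By scaled intensity 15 of 84 rows (17.9%) went at least 2-fold both ways, 0 of these 3 among them. The 3 rows were chosen from the measured ratios: the difference between a heat-stressed group and its own unstressed group was at least 2-fold upward (log2 difference of at least 1.00) in one state of the animals and at least 2-fold downward in another. These differences chose the rows, so they are given as a description, without a test. The array names were not paired with genes in the tables, and 0 of the 87 names matched the rat RefSeq table (assembly GRCr8), so no gene, function or sequence is given for the 3 rows.

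During heat acclimation an animal adapts to a lasting warm environment, and its heart and cardiac gene expression are known to change over days to weeks. Acute heat stress calls up the heat shock response, in which chaperone genes are transcribed quickly to deal with unfolded proteins. Acclimation is lost when the animal returns to a cool room, and it is known to return faster on renewed heat than it first developed.

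The study held 9 groups of rats. Control rats were untreated, and heat-stressed rats without acclimation were exposed to 41 °C for 2 h and then recovered for 1 h at 24 °C. Rats were acclimated at 34 °C for 2 d or for 1 mo. Deacclimated rats were kept at 24 °C for 1 mo after 1 mo at 34 °C, and reacclimated rats were afterwards returned to 34 °C for 2 d. The 2 d acclimated, 1 mo acclimated and reacclimated states were each also examined after the same heat stress, which with the untreated and stressed controls gives 4 pairs of a stressed and an unstressed group. The labels give no strain, sex or age. Each group came from 3 pools of RNA, with 6 animals stated, and was deposited as 1 value per row. No spread between pools or animals can be given, so no neighbouring levels in any order below can be told apart beyond error, and no p-value was computed. The labelled tissue could not be checked against marker genes, and fewer cells of a type cannot be told apart from less RNA per cell.

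Values below are log2 ratios to the untreated control unless intensity is named. The control is 0 by construction. A second deposited table lists linear intensities of these rows, which were used to check each value. Median intensities ranged from 1064 in 2 d acclimated rats with heat stress to 4962 in those without, so intensities were compared after centring each group's log2 values on its median over the 59 rows above 0 throughout ("scaled intensity"). Over all rows, the correlation between the stress differences of both tables was 0.229 in rats that were not acclimated (76 rows), 0.705 after 2 d acclimation (66 rows), 0.829 after 1 mo acclimation (87 rows) and 0.563 after reacclimation (81 rows). The rows within each pair share their arrays.

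Row R635 stood at -0.15 in rats stressed without acclimation. It stood at -0.40 after 2 d acclimation, at -2.03 after 2 d acclimation with heat stress, at -0.67 after 1 mo acclimation and at -0.62 after 1 mo acclimation with heat stress. It stood at -0.83 after deacclimation, at -1.92 after reacclimation and at -0.80 after reacclimation with heat stress. All 8 treated groups were therefore below the control, the lowest being 2 d acclimated, heat-stressed and reacclimated rats, which lay well apart from the other 6. Along the unstressed states the listed ratio was lower at each step, from the control through 2 d and 1 mo acclimation and deacclimation to reacclimation. The drop of 1.10 log2 units from the deacclimated to the reacclimated group was the only step between consecutive states that reached 2-fold, in a comparison where 8.05% of all rows were at least 2-fold lower.

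Heat stress left R635 3.10-fold lower in 2 d acclimated rats (log2 difference -1.63) and 2.18-fold higher in reacclimated rats (1.13). For background, 33.3% of all rows were at least 2-fold lower on stress after 2 d acclimation, and 4.60% of them were at least 2-fold higher on stress after reacclimation. The median difference over all rows was -0.39 and -0.18 in these states. In the other states R635 differed little, by -0.15 without acclimation and by 0.05 after 1 mo acclimation. Its opposite differences were thus seen in states that shared the same latest exposure, 2 d at 34 °C, and differed in the earlier month of acclimation and month of deacclimation.

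The span from the 2 d acclimated to the reacclimated difference of R635 was 2.76 log2 units, and it came from both levels. The unstressed level was 1.53 lower in reacclimated than in 2 d acclimated rats, which is 55.4% of the span. The stressed level was 1.23 higher in reacclimated than in 2 d acclimated rats, which is the other 44.6%. The stressed level of the 2 d acclimated rats was the lowest of the 4 stressed levels, and the unstressed level of the reacclimated rats was the lowest of the 4 unstressed levels. In the comparisons of the levels themselves, 6.90% of all rows were at least 2-fold lower in reacclimated than in 2 d acclimated rats without stress, and 26.4% at least 2-fold higher with it. Across the 4 states the unstressed level covered 1.92 log2 units and the stressed level 1.88.

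The intensities of R635 did not show the same flip. They were 12127 in the control, 8126 with heat stress alone, 14788 after 2 d acclimation, 8476 after 2 d acclimation with heat stress, 7559 after 1 mo acclimation and 11292 after 1 mo acclimation with heat stress. They were 12253 after deacclimation, 4898 after reacclimation and 8380 after reacclimation with heat stress. The low level of the reacclimated hearts was thus seen in both tables, with a scaled intensity difference of -1.73 from the control. The stepwise order before it was not: by scaled intensity the deacclimated level was 0.26 above that of 1 mo acclimation, and without scaling the 2 d acclimated and deacclimated levels were 0.29 and 0.01 above the control. The deposited ratio of -2.03 in 2 d acclimated, heat-stressed rats was not matched: the scaled intensity there was 0.19 above the control. Scaled intensity of R635 was higher on heat stress by 0.79 after 2 d acclimation and by 0.41 after reacclimation, both on the same side. Without scaling the differences were -0.80 and 0.77, of opposite sign but each under 2-fold. The direction after 2 d acclimation therefore depended on the scaling between those groups, whose medians over the rows used for scaling were 2434 with heat stress and 7340 without. In both tables the unstressed level was lower after reacclimation than after 2 d acclimation (scaled intensity difference -1.13). The stressed level was lower by scaled intensity (-1.51) and nearly equal without scaling (-0.02), against 1.23 higher in the ratio table.

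**Figure D1:**
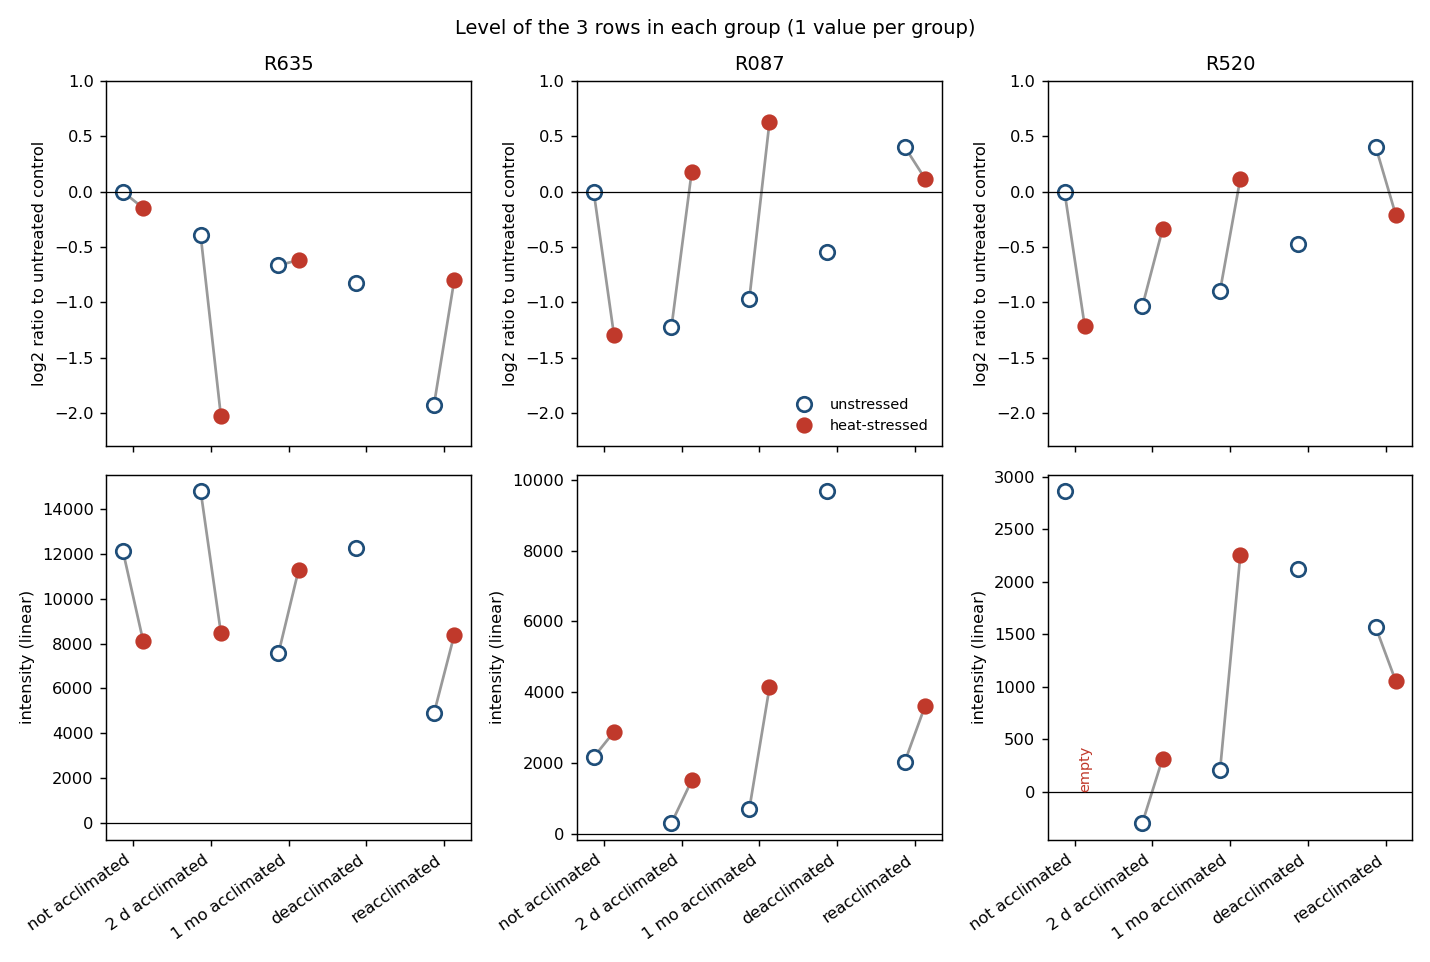
Level of R635, R087 and R520 (columns) by state of the rats, as log2 ratio to the untreated control (top) and as linear intensity (bottom). Open circles are unstressed and filled circles heat-stressed groups, 1 value each, joined within a state; deacclimated rats were not stressed. In the top row R635 goes down on stress after 2 d acclimation and up after reacclimation, while R087 and R520 go down without acclimation and up after 2 d or 1 mo of it; in the bottom row the heat-stressed value of R520 without acclimation is empty.

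Row R087 stood at -1.29 in rats stressed without acclimation, at -1.22 after 2 d acclimation, at 0.18 after 2 d acclimation with heat stress, at -0.97 after 1 mo acclimation and at 0.63 after 1 mo acclimation with heat stress. It stood at -0.54 after deacclimation, at 0.40 after reacclimation and at 0.12 after reacclimation with heat stress. From lowest to highest the order was heat-stressed, 2 d acclimated, 1 mo acclimated, deacclimated, control, reacclimated with heat stress, 2 d acclimated with heat stress, reacclimated, and 1 mo acclimated with heat stress. Acclimated hearts at rest were thus below the control, and acclimated hearts after heat stress were above it. The unstressed level after 2 d acclimation was 2.33-fold below the control, in a comparison where 6.90% of all rows were at least 2-fold lower.

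On heat stress R087 was 2.45-fold lower without acclimation (-1.29), 2.65-fold higher in 2 d acclimated rats (1.40) and 3.03-fold higher in 1 mo acclimated rats (1.60). After reacclimation its difference was small and downward (-0.29). In the same comparisons 10.3% of all rows were at least 2-fold lower without acclimation, 9.20% at least 2-fold higher after 2 d acclimation and 8.05% at least 2-fold higher after 1 mo acclimation. The values of R087 were the largest swing of the 3 rows, with a span of 2.89 log2 units between the 1 mo acclimated and the not acclimated state.

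More of that span came from the stressed level. The stressed level of R087 was 1.92 higher in 1 mo acclimated than in non-acclimated rats, which is 66.4% of the span, and the unstressed level was 0.97 lower, which is 33.6%. Stressed hearts with a history of heat were all above stressed hearts without one, 2.78-fold after 2 d acclimation, 3.79-fold after 1 mo acclimation and 2.66-fold after reacclimation, where 11.5%, 13.8% and 34.5% of all rows were at least 2-fold higher. These 3 comparisons share the heat-stressed group. By scaled intensity they were -0.27, 0.23 and -0.50 log2 units, so the order held in 1 of the 3. Without scaling they were -0.93, 0.52 and 0.33, so the sign after reacclimation depended on the scaling. Against 2 d acclimation, the other state with a rise of at least 2-fold, the stressed part was 1.47 and the unstressed part 1.22. The contrast between acclimated and reacclimated rats was made up differently. There the stressed levels were close, at 0.18 after 2 d acclimation and 0.12 after reacclimation, while the unstressed level was 1.63 higher after reacclimation (3.09-fold, where 18.4% of all rows were at least 2-fold higher). The intensities of the reacclimated rats differed from this: R087 was higher on stress (0.46 scaled, 0.82 without scaling), and its level before stress did not exceed the control (-0.51 scaled, -0.09 without scaling).

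By intensity the rises of R087 were seen and the fall was not. Its intensities were 2166 in the control and 2880 in heat-stressed rats, 304.2 and 1508 after 2 d acclimation without and with heat stress, 692.6 and 4139 after 1 mo acclimation, 2041 and 3614 after reacclimation, and 9679 after deacclimation. The 2 d and 1 mo acclimated hearts at rest were the lowest of the 9 groups. Without scaling, heat stress left the intensity 4.96-fold higher in 2 d and 5.98-fold higher in 1 mo acclimated rats (log2 differences 2.31 and 2.58). By scaled intensity the log2 differences were 3.90 and 2.57. Of all rows, 18.2% of 66 and 20.7% of 87 were at least 2-fold higher there by scaled intensity. The unstressed values of 304.2 and 692.6 were not shown to be above background, so the sizes of these rises are uncertain. Without acclimation the scaled intensity was higher on stress by 0.46, against -1.29 in the ratio table. With scaled intensity, the signs of the ratio to control were the same in both tables in 4 of 8 groups for R087, against 7 of 8 for R635. The heat-stressed group and the deacclimated group, whose intensity was the highest of R087 although its ratio was below 0, were among the 4 that differed. Without scaling, R635 differed in sign after 2 d acclimation (0.29) and after deacclimation (0.01), where its ratios were below 0.

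The unstressed level of R087 was lower after 1 mo acclimation than in the control in both tables. By scaled intensity the span between 1 mo acclimated and non-acclimated rats was 2.11 log2 units, of which 1.88 lay in the unstressed and 0.23 in the stressed levels. The size of the unstressed part rests on the low value of 692.6 and is uncertain. The ratio table had divided the span the other way.

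Row R520 stood at -1.21 in rats stressed without acclimation, at -1.04 after 2 d acclimation, at -0.34 after 2 d acclimation with heat stress, at -0.89 after 1 mo acclimation and at 0.12 after 1 mo acclimation with heat stress. It stood at -0.48 after deacclimation, at 0.41 after reacclimation and at -0.21 after reacclimation with heat stress. The 4 lowest groups were the same as for R087, in the same order. Reacclimated hearts at rest were highest by ratio. Stressed hearts stood 0.88 (2 d acclimated), 1.33 (1 mo acclimated) and 1.00 (reacclimated) log2 units above hearts stressed without acclimation, the first of these under 2-fold. By intensity the level of reacclimated hearts at rest was instead below the control (-1.29 scaled, -0.87 without scaling).

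Heat stress left R520 2.32-fold lower without acclimation (-1.21) and 2.02-fold higher after 1 mo acclimation (1.01). It was higher by 0.70 after 2 d acclimation and lower by 0.62 after reacclimation, neither of which reached 2-fold. The span of 2.23 log2 units divided into 1.33 from the stressed level (59.8%) and 0.89 from the unstressed level (40.2%). As for R087, the stressed levels after 2 d acclimation and reacclimation were close (-0.34 and -0.21), and the unstressed level was 1.44 higher after reacclimation. Against 1 mo acclimation the reacclimated level at rest was 1.30 higher for R520 and 1.38 higher for R087, where 19.5% of all rows were at least 2-fold higher, and 1.26 lower for R635 (a difference of -1.26), where 9.20% were at least 2-fold lower.

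The fall of R520 could not be checked by intensity, because the heat-stressed value was empty. Its other intensities were 2862 in the control, -296.5 after 2 d acclimation and 315.2 with heat stress, 209.9 after 1 mo acclimation and 2250 with heat stress. They were 2126 after deacclimation, 1570 after reacclimation and 1052 after reacclimation with heat stress. Acclimated hearts at rest were again lowest, and the 2 d value was below 0, so it has no ratio. After 1 mo acclimation the intensity was higher on stress, from 209.9 to 2250 (scaled log2 difference 3.41), but the lower value was not shown to be above background, so the size of this rise is uncertain. The difference after reacclimation was downward in both tables (-0.94 by scaled intensity). By scaled intensity the unstressed level was 4.00 log2 units lower after 1 mo acclimation than in the control, a size that rests on the same low value. With scaled intensity, the signs of the ratio to control were the same in both tables in 4 of the 6 groups that could be compared.

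**Figure D2:**
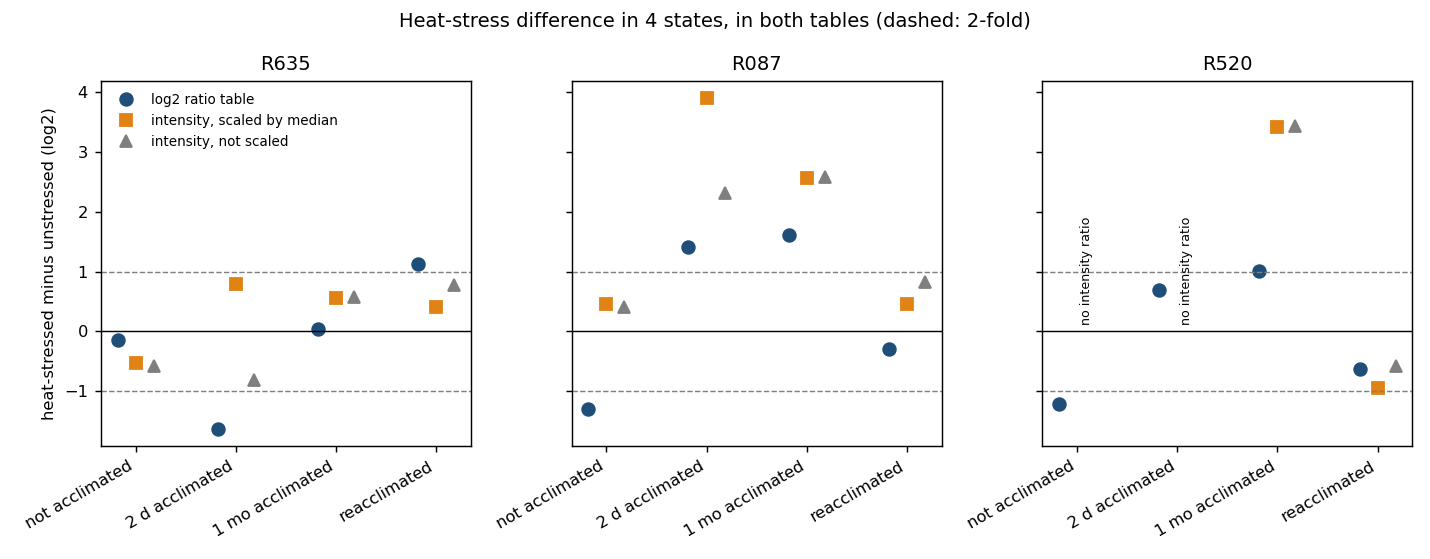
Heat-stressed minus unstressed log2 difference of R635, R087 and R520 in 4 states, from the ratio table (circles), the scaled intensities (squares) and the intensities without scaling (triangles), 1 value each; dashed lines mark 2-fold. The rises of R087 after 2 d and 1 mo acclimation and of R520 after 1 mo acclimation pass 2-fold in all 3 readings. The fall of R635 after 2 d acclimation, its rise after reacclimation and the fall of R087 without acclimation do so only in the ratio table. The fall of R520 without acclimation has no intensity to compare.

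The rows were next set against the rest of the array. The 3 rows are 3.45% of the 87. By state, 2 rows (R087 and R520) were at least 2-fold higher on stress after 1 mo acclimation and at least 2-fold lower without acclimation. Another combination, higher after 2 d and lower without acclimation, held 1 row (R087), and higher after reacclimation and lower after 2 d held 1 row (R635). The other 9 ordered pairs of states held 0 rows. Differences of both signs, whatever their size, were common: 67 of the 87 rows had them. The pattern of signs of R087 and R520 (down, up, up, down, from no acclimation through 2 d and 1 mo acclimation to reacclimation) was found in 7 rows, and that of R635 (down, down, up, up) in 5 rows, these 3 rows included.

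The rule left R520 just inside, with a rise of 1.01. Just outside were A061, whose fall after 1 mo acclimation was -0.98, A070, whose rise without acclimation was 0.98, and A038, whose rise without acclimation was 0.96. The control value of A061 was itself listed at -3.32 where 0 is due. None of the 3 rows R635, R087 and R520 had such a control value or a value lying apart below the rest of a column. The span between the highest and lowest stress difference had a median of 1.34 over all 87 rows, and 9 rows had a larger span than R635, 7 a larger one than R087 and 20 a larger one than R520. The unstressed part exceeded the stressed part in 42 of the 87 rows (48.3%), R635 among them, and the median stressed part over all rows was 55.1% of the span.

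**Figure D3:**
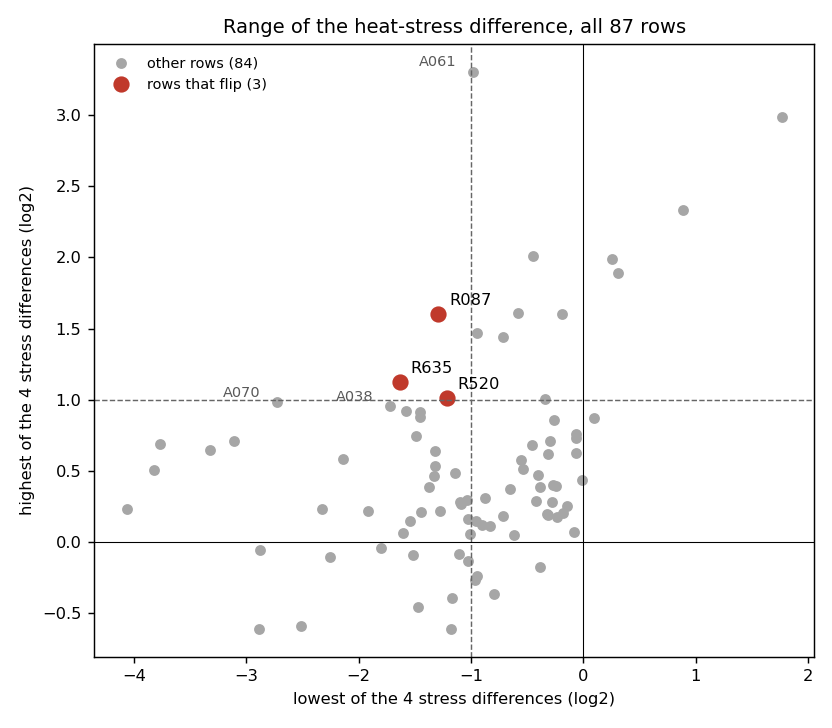
Highest against lowest of the 4 heat-stress differences (log2) for all 87 rows, 1 point per row; dashed lines mark 2-fold. R635, R087 and R520 are the 3 points at the upper left beyond both lines, R520 lies on its edge, and A061, A070 and A038 lie just outside.

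By scaled intensity, 15 of the 84 rows with at least 2 stress differences (17.9%) went at least 2-fold both ways, and 0 of the 3 rows were among them. R635 and R087 had all 4 differences by intensity, and R520 had 2. Of the 15, the 5 largest by the smaller of their rise and fall included S62R, R532, R105 and R220. The remaining one of these 5 carries the digits of R635 before the letter R and is a different row, with its own values in both tables. Its stress differences were 0.92, -0.94, -1.57 and 0.78 in the order given above, and -0.54, -2.07, -1.36 and 1.52 by scaled intensity. The stress difference of row S62R went from -3.77 without acclimation to 0.69 after reacclimation by ratio, while its scaled intensity went from -4.20 after 2 d acclimation to 3.04 after reacclimation.

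**Figure D4:**
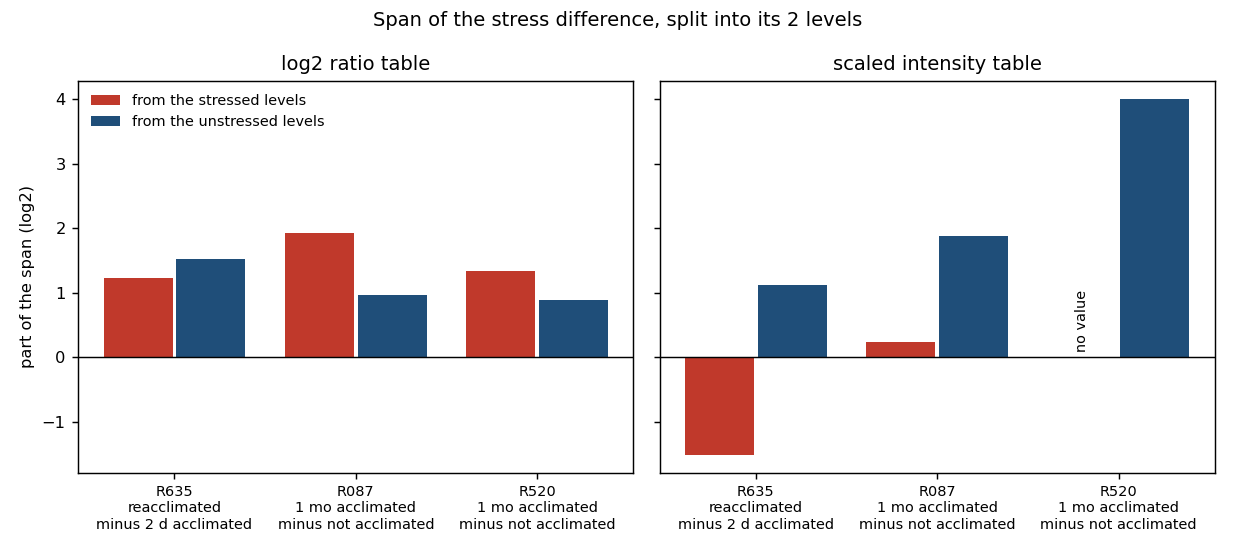
Span between the highest and lowest heat-stress difference of each row, split into the part from the stressed levels (red) and the part from the unstressed levels (blue), in log2 units, for the ratio table (left) and for the same states by scaled intensity (right). In the ratio table both parts are above 0 in all 3 rows, between 0.89 and 1.92; by scaled intensity the unstressed parts are 1.13, 1.88 and 4.00, the stressed parts are -1.51 and 0.23, and R520 has none because of the empty value.

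Likeness between rows was taken as Pearson's r over the 8 treated groups, which all share the control and their arrays, and it is given as a description. The row most like R087 was R520 (0.950), and the other way round. Both rows were chosen for opposite stress differences in the same states, and 7 of the 8 groups supplied the values that chose them, so a high r follows in part from the choice. After each other, R087 was most like R516 (0.790) and A022 (0.785), and R520 most like A022 (0.851) and R516 (0.807). Both of those rows were at least 2-fold higher on stress after 2 d acclimation (1.60 for R516 and 1.24 for A022) and after 1 mo acclimation (1.58 and 2.01). Without acclimation the stress difference was 0.19 for R516 and -0.45 for A022, the latter downward as for R087 and R520 but under 2-fold. By scaled intensity R087, R516 and A022 were all higher on stress there (0.46, 0.76 and 0.79), and R520 has no value. By scaled intensity the r of R087 and R520 was 0.674 over the 7 groups where both were above 0. These include the control, so this r covers another set of groups than the 0.950.

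Row R635 ran against the other pair in the ratio table, with an r of -0.641 with R087 and -0.660 with R520. Here too 7 of the 8 groups supplied the values that chose the rows. One of the 2 lowest values of R635, in 2 d acclimated, heat-stressed rats, was not matched by scaled intensity (0.19 above the control). The r of R635 with these rows was not computed by intensity. The rows most like it were R045 (0.901), A038 (0.676) and S72R (0.656). R045 was also lower on stress after 2 d acclimation (-1.45) but its difference after reacclimation was only 0.21. A038 was lower after 2 d acclimation (-1.72) and also after reacclimation (-0.88). By scaled intensity R045 was instead higher on stress after 2 d acclimation (0.68) and after reacclimation (2.01). A038 was lower by scaled intensity in both states, by little after 2 d acclimation (-0.22) and by more after reacclimation (-2.60).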

How the data were processed

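Per the labels' protocols, pools of left ventricular RNA were labelled radioactively by the Clontech procedure. The authors deposited log2 values (per the labels, a normalized ratio of the treatment's to the control's geometric mean) and, separately, linear intensity values, both for 87 rows and 9 groups. Normalization, background correction, choice of rows and the handling of pools in the intensities were not given in the sources used here. With 1 value per group, depth and spread are unknown, and precision is limited by the number of arrays.

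The control was taken as 0 (it is listed within 1e-05 of 0 for R635, R087 and R520). Stress differences, their span and its division into stressed and unstressed levels were computed per row. Intensities at or below 0 (in 4 groups) or empty (11 in the heat-stressed group) were left out. The counting was tested on simulated data. Named rows were the 3 rows, the 3 nearest the threshold, the 3 most like each row by Pearson's r, and up to 5 that went both ways by intensity. The rows and rules were chosen with earlier results of these data known. Computation used pandas 2.3.3 with numpy 2.4.6 under Python 3.11.15, and plots matplotlib 3.10.9.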

Additional observations from a re-analysis of the deposited data

Results flagged for a closer look

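In the ratio table the heat-stress difference of each of the 3 rows had opposite signs in different states: the differences between states were 2.76 log2 units for R635 (reacclimated minus 2 d acclimated), 2.89 for R087 (1 mo acclimated minus not acclimated) and 2.23 for R520 (1 mo acclimated minus not acclimated). With 1 value per group these differences were not tested, and the rows were chosen for them. By intensity R087 was higher on stress in all 4 states, with and without scaling.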

How the results depend on the processing

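All 3 rows still went both ways after centring each group on its median (7 rows in total). They also did with the control column as listed (8 rows), at 1.5-fold (17 rows) and without values lying apart (3 rows), but these settings could not drop them. Rows chosen at 2-fold also pass 1.5-fold, and the 3 rows had a listed control within 1e-05 of 0 and no value lying apart. At 3-fold 0 rows went both ways, and by scaled intensity 15 did (0 of the 3). Without the not acclimated pair 1 did (R635), and without another pair 2 did. Without the 25% of rows ranked lowest in intensity, which removed R520, 2 did. Rows with an empty intensity or one at or below 0 were ranked lowest and tied. These rows outnumbered the 25%, since 59 of the 87 rows were above 0 throughout. Only such rows were removed, but not all of them, and the order of the rows in the data decided which. This setting is therefore not a filter on the lowest intensity, and the removal of R520 depended on that order. Centring on group medians kept the direction of all 21 differences, spans and parts; it moved the stressed part of R635 under 2-fold (0.67) and 3 values over it, namely R520 after 2 d acclimation (1.18) and the unstressed parts of R087 (1.10) and R520 (1.02). With the control as listed all 21 stayed on their side of 2-fold, which was fixed in advance because the listed control of these rows is within 1e-05 of 0. By scaled intensity 5 of 17 values reversed: R635 after 2 d acclimation (0.79), its span (-0.38) and its stressed part (-1.51), and R087 without acclimation (0.46) and after reacclimation (0.46). R635 after reacclimation (0.41) and the stressed part of R087 (0.23) fell under 2-fold, and the unstressed parts of R087 (1.88) and R520 (4.00) passed it. Intensity without centring gave -0.80 and 0.77 for R635 after 2 d acclimation and after reacclimation, and 0.41 and 0.82 for R087 without acclimation and after reacclimation. The cause was not tested. By Spearman's rho 1 of the 3 rows most like R087 stayed (R520). Intensities gave no value for R520 without acclimation or after 2 d acclimation. No paired analysis was possible because each group holds 1 sample.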
